A study of Mus musculus with 12 samples.

Results

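Collagens are the triple-helical proteins that give connective tissue and basement membranes their strength, and 44 protein-coding mouse genes carry a symbol of Col, digits, a, digits in RefSeq (GRCm38, the assembly that mm10 stands for). The 42 of them other than Col4a1 and Col4a2, out of 21887 protein-coding genes, are described here through the genome regions bound by 2 subunits of Mediator. The members are the regions whose nearest protein-coding gene span, within 100 kb, was 1 of these 42 genes. That made 125 of 65291 regions for MED1 and 143 of 66123 regions for MED24, and none of them was tied with another gene. The nearest gene is a label of position and does not show which gene a region acts on.

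Chromatin immunoprecipitation followed by sequencing was performed in E14tg2a mouse embryonic stem cells of 129SV background that carried a stable cRAF-ErT2 cassette, a RAF kinase fused to a hormone-binding domain that 4-hydroxytamoxifen (4OHT) switches on. All cells were first grown in serum, LIF and 2 µM Chir99021 (an inhibitor of GSK3) and then kept for 24 h in serum, LIF and 250 nM PD173074, an inhibitor of FGF receptors. Cells of clones a and b were taken without treatment (0 h) or after 2 h of 250 nM 4OHT. MED1 was precipitated with its own antibody and MED24 through a FLAG tag, which gives 4 groups of 2 libraries, 1 per clone, in 8 peak lists. The 4 inputs were not analysed here, and neither was any library without the cassette or with vehicle alone, so 4OHT, time and ERK activation cannot be told apart. With 2 libraries against 2, the smallest p that an exact two-sided permutation test can give is 0.333, so no difference between the times could pass a threshold of 0.05, and the differences below are given as values with their spread.

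Mediator is the large complex that links transcription factors at enhancers to RNA polymerase II at promoters, and MED1 belongs to its middle part and MED24 to its tail. RAF starts the kinase cascade that ends in ERK, which drives embryonic stem cells out of the undifferentiated state. Collagen chains fall into families by how they assemble: fibrillar chains build the tensile fibres, other chains form networks, beaded filaments or anchoring fibrils, the FACIT chains decorate fibrils, and a few are transmembrane proteins. Most of them are products of mesenchymal and epithelial tissues rather than of undifferentiated embryonic stem cells.

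Promoters are shown first because RefSeq promoter windows were the sequences used here, although most collagen regions lay elsewhere. RefSeq placed a start for 33 of the 42 genes. A window from 250 bases before to 50 bases after the start overlapped a MED1 region in 9 of these 33 genes (27.3%) and a MED24 region in 11 (33.3%), against 44.2% and 43.9% of all 27025 genes with such a window. These are more than the 21887 protein-coding genes, so this background, unlike the collagen genes, is not limited to protein-coding ones. In 5 genes the promoter was called in both 2 h libraries and no 0 h library of at least 1 protein, and at Col7a1 alone this held for both proteins. The share of all genes with such a promoter was not computed, so whether 5 of 33 is many or few is not known. The sequences below belong to 4 of these 5 genes (Col7a1, Col11a1, Col13a1 and Col1a2), to Col5a1, whose promoter was called in every library, and to Col18a1, the gene with the most regions. The window of the fifth, Col25a1, lies inside the gene span. Each runs 5′ to 3′ along the gene's own strand through the 250 bases before the start, without any base inside the RefSeq gene span. Capitals mark GGGCGG (the core of a GC box, the site that Sp1 is known to bind; CCGCCC on the other strand) or TATAAA (the TATA box), on either strand.
Col7a1: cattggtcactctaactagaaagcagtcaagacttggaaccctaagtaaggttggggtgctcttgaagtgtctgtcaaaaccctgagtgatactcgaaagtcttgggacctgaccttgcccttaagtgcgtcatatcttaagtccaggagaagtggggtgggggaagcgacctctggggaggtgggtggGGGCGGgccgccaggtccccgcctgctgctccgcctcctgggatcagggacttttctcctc
Col11a1: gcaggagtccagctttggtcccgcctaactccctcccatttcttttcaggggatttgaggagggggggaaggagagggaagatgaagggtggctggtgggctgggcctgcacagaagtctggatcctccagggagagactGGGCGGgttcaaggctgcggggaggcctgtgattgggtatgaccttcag
Col13a1: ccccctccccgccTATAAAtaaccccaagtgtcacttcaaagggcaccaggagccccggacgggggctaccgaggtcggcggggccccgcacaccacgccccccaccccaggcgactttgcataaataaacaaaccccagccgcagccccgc
Col1a2: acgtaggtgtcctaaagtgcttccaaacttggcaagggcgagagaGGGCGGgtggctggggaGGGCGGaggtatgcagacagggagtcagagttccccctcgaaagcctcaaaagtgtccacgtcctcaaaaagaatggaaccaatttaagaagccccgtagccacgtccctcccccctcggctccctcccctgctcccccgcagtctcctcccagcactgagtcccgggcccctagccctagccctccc
Col5a1: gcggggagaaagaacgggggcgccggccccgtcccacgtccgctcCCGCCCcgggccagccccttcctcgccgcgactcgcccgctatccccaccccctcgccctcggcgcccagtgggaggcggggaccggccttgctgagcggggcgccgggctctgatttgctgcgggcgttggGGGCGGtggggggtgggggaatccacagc
Col18a1: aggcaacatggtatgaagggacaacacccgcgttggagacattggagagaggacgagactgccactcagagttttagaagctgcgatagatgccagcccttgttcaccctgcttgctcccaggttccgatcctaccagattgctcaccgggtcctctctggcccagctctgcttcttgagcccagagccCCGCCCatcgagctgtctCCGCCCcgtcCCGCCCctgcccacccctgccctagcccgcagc

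In mm10 these are chr9:108953336-108953585 (plus strand) for Col7a1, chr3:114030290-114030478 (plus) for Col11a1, chr10:61979207-61979358 (minus) for Col13a1, chr6:4505368-4505617 (plus) for Col1a2, chr2:27886175-27886380 (plus) for Col5a1 and chr10:77166531-77166780 (minus) for Col18a1. GGGCGG occurs once in the stretch shown for Col7a1 and for Col11a1, in 2 places for Col1a2 and for Col5a1 and in 3 for Col18a1. The Col13a1 stretch holds TATAAA and no GGGCGG. Over all collagen windows with a placed start, 21 of 36 (58.3%) had GGGCGG in their 250 bases, compared with 32.7% of 32851 windows of all genes. Those 32851 windows are not limited to protein-coding genes. TATAAA was present in 5 of 36 (13.9%) against 12.4%, and TGANTCA, the site of AP-1 factors, in 1 (2.78%) against 6.75%. CCGGAAGT, a site of ETS factors, was in none of the 36 and in 2.88% of all windows. Each motif was searched by itself on both strands, and a match is a description of letters, not of binding.

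More collagen regions were called after 2 h of 4OHT than before, in both clones and for both proteins. MED1 was called at 54 collagen regions at 0 h in clone a and 53 in clone b, and at 73 and 82 at 2 h. The means were 53.5 ± 0.707 and 77.5 ± 6.36 (SD, n = 2 each), a difference of 24 regions (19 within clone a, 29 within clone b). MED24 was called at 67 and 60 collagen regions at 0 h and at 80 and 94 at 2 h. Its means were 63.5 ± 4.95 and 87 ± 9.90 (SD, n = 2 each), a difference of 23.5 (13 within clone a, 34 within clone b). The 0 h and 2 h libraries did not overlap for either protein.

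The 2 h lists were also longer, with 43949 and 47305 MED1 peaks against 38668 and 37483 at 0 h, and with 42445 and 48931 MED24 peaks against 41689 and 38398. As a share of all regions called in a library, collagen regions made up 0.149% and 0.151% for MED1 at 0 h and 0.177% and 0.183% at 2 h. For MED24 the shares were 0.168% and 0.164% at 0 h and 0.198% and 0.199% at 2 h. The share was thus higher at 2 h by 0.0295 percentage points for MED1 and by 0.0321 for MED24, with no overlap between the times. Col18a1 held a large part of this: without its regions, an alternative chosen after seeing the data, the differences were 0.0130 and 0.0196 percentage points.

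**Figure D1:**
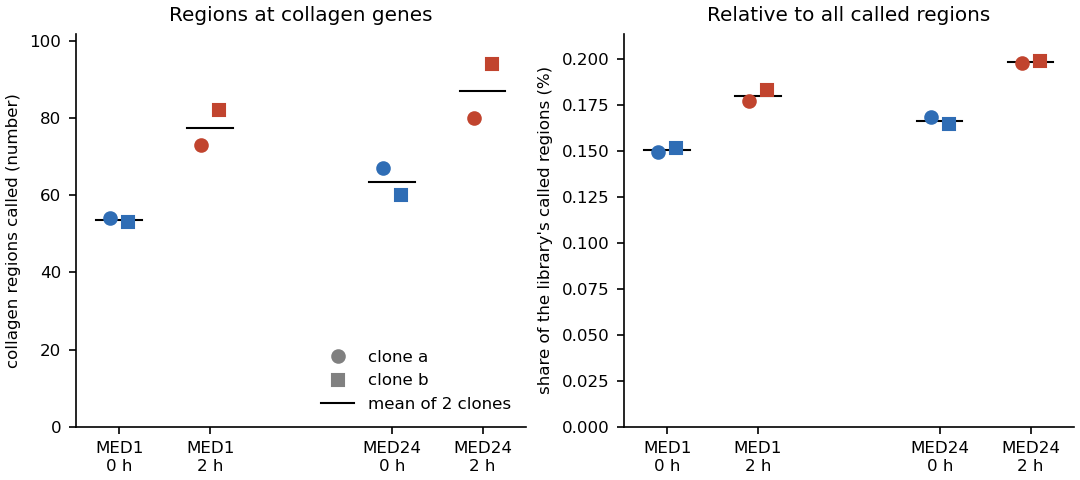
Number of collagen regions called in each of the 8 libraries (left axis panel) and the same number as a percent of all regions called in that library (right axis panel). Circles are clone a, squares clone b, blue 0 h, red 2 h, and lines the mean of 2 clones; both 2 h libraries lie above both 0 h libraries in each case.

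A region was counted as gained if both 2 h libraries and neither 0 h library called it, as lost in the reverse case, as retained if all 4 did, and as mixed otherwise. For MED1, 31 of 125 collagen regions were gained (24.8%), against a background of 17.6% of all MED1 regions. Lost were 5 (4%), against 6.90% of all, and 22 were retained (17.6%), against 30.9%. For MED24, 27 of 143 were gained (18.9%), with 16.0% of all MED24 regions gained. Another 13 were lost (9.09%, all regions 8.83%) and 28 retained (19.6%, all regions 32.6%). In the lists as deposited, MED24 gains and losses were thus near the background, and both proteins had fewer retained regions than the background. The remaining 67 MED1 (53.6%) and 75 MED24 regions (52.4%) were mixed. Of collagen regions, 36.8% and 37.8% were called in 1 library alone, compared with 30.6% and 27.9% of all regions. Called collagen regions were also weaker for MED1, by the median of the peak caller's fold enrichment in each library. It was 4.71 and 4.90 at 0 h and 5.35 and 4.98 at 2 h (clones a and b). Over all called regions it was 5.38 and 5.40 and then 5.80 and 5.54. The MED24 lists hold no fold enrichment. The backgrounds are not matched for strength, and its part in the shares above was not tested.

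Leaving out a library loosens the rules for gained and lost, since fewer libraries must then agree. The higher counts that follow are thus largely by construction and do not show dependence on 1 library. When clone a at 2 h was left out, 49 MED1 and 51 MED24 regions counted as gained, and when clone b at 2 h was left out, 41 MED24 regions did. Lost regions came to between 9 and 19 for MED1 when 1 library was left out, and to 20 or 25 for MED24 when clone a or clone b at 0 h was left out. With lists cut to the 10000 highest ranked peaks of each library, which makes them equally long, 9 of 24 MED1 regions (37.5%) and 11 of 31 MED24 regions (35.5%) were gained, beside 20.4% and 20.8% of all regions. Among the 20000 highest ranked peaks, 15 of 49 MED1 regions (30.6%) and 16 of 59 MED24 regions (27.1%) were gained, beside 18.2% and 17.6%. Retained shares with 20000 peaks were 20.4% for MED1 and 25.4% for MED24, beside 29.8% and 29.5% of all regions. With 10000 peaks they were 25% and 25.8%, beside 25.8% and 24.3%, and so near the background. Lost MED24 regions made up 13.6% with 20000 peaks (15.5% of all regions) and 9.68% with 10000 (18.5%). With a peak score of at least 100 they made up 13.6% (10.1%).

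Occupied regions were uneven across the genes. At least 1 region was assigned to 30 of the 42 genes for MED1 and to 33 for MED24, and the 30 had regions of both proteins. The median collagen gene had 2 regions of each protein, as did the median protein-coding gene. No MED1 region was assigned to 28.6% of the collagen genes (24.1% of all genes) and no MED24 region to 21.4% (23.3% of all). The 9 genes with no region of either protein were Col4a3, Col4a4 and Col4a6 of the basement membrane network, Col6a1 and Col6a2, which encode chains of collagen VI, the fibrillar Col11a2, the hexagonal-network Col10a1 of growth-plate cartilage, the FACIT Col20a1 and the multiplexin Col15a1. At the other end, Col18a1, Col13a1, Col26a1 and Col6a5 together held 60 MED1 regions (48%) and 63 MED24 regions (44.1%). Of all 21887 genes, 0.539% had at least as many MED1 regions as Col18a1 and 0.192% at least as many MED24 regions.

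**Figure D2:**
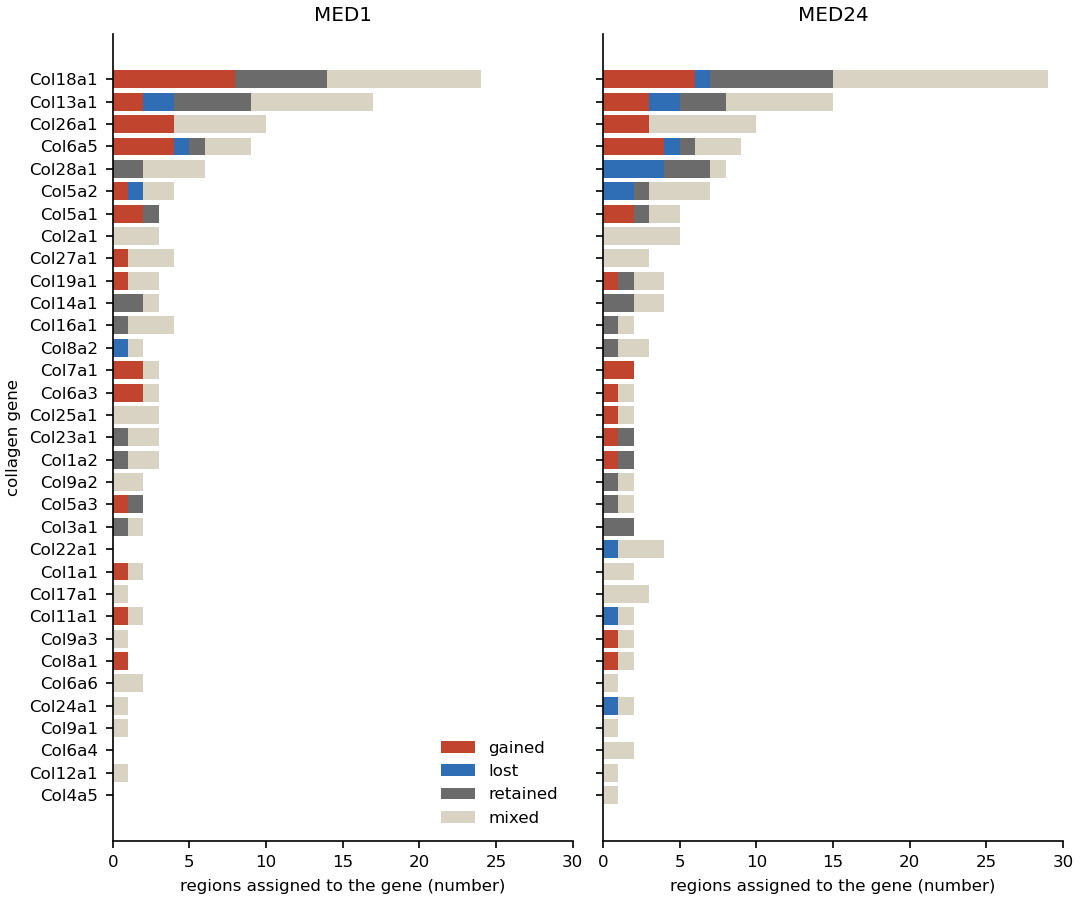
Regions assigned to each collagen gene with at least 1 region, for MED1 (left) and MED24 (right), split into gained (red), lost (blue), retained (dark grey) and mixed (light). The horizontal axis counts regions; Col18a1 has the longest bar for both proteins, with 24 and 29 regions.

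Gained MED1 regions lay at 14 genes: 8 at Col18a1, 4 each at Col26a1 and Col6a5, 2 each at Col5a1, Col6a3, Col7a1 and Col13a1, and 1 each at Col1a1, Col5a2, Col5a3, Col8a1, Col11a1, Col19a1 and Col27a1. Gained MED24 regions lay at 13 genes: 6 at Col18a1, 4 at Col6a5, 3 each at Col13a1 and Col26a1, 2 each at Col5a1 and Col7a1, and 1 each at Col1a2, Col6a3, Col8a1, Col9a3, Col19a1, Col23a1 and Col25a1. Both proteins had a gained region at 9 genes (Col5a1, Col6a3, Col6a5, Col7a1, Col8a1, Col13a1, Col18a1, Col19a1 and Col26a1). Lost MED1 regions lay at 4 genes, 2 at Col13a1 and 1 each at Col5a2, Col6a5 and Col8a2. Lost MED24 regions lay at 8 genes, 4 at Col28a1, 2 each at Col5a2 and Col13a1, and 1 each at Col6a5, Col11a1, Col18a1, Col22a1 and Col24a1. Col5a2, Col6a5 and Col13a1 had a lost region of both proteins.

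Col18a1 encodes a basement membrane collagen with heparan sulphate chains whose carboxy-terminal fragment is endostatin, and it had more regions than any other collagen gene. MED1 was called at 10 and 8 of its regions at 0 h (clone a first, as throughout) and at 17 and 19 at 2 h. For MED24 the numbers were 13 and 14 at 0 h and 20 and 22 at 2 h. Of 24 MED1 regions 8 were gained, none lost and 6 retained, and of 29 MED24 regions 6 were gained, 1 lost and 8 retained. A group of regions lay upstream of the gene, between 16.3 and 44.7 kb from its span for MED1 and between 11.7 and 44.8 kb for MED24. The next nearest gene to the gained and retained MED1 regions there, Pofut2, was 47.5 to 75.7 kb away.

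Strength is given below as a percentile, the rank of a region's best peak among all regions called in the same library (100 is the strongest), and for MED1 also as the fold enrichment that the authors' peak caller gave that peak. The strongest upstream region, chr10:77190407-77195244, was called in every MED1 library, at percentiles 93.2 and 94.5 at 0 h and 99.7 and 99.7 at 2 h, with fold enrichments of 11.7 and 13.6 at 0 h and 32.4 and 37.8 at 2 h. Farther out, chr10:77201052-77202651 stood at the 34.3rd and 41.9th percentile at 0 h and at the 95.6th and 94.2nd at 2 h. Its fold enrichment was 4.77 and 4.48 at 0 h and 18.8 and 14.3 at 2 h. This region was named for the largest rank rise among retained MED1 collagen regions, by the clone that rose less. Retained regions named for a rise or fall, here and below, were picked by that change, so its direction is set by the choice. MED24 at the overlapping chr10:77201026-77202455 was at 70.1 and 47.9 at 0 h and 94.0 and 95.7 at 2 h.

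Between these, chr10:77196649-77200606 had MED1 percentiles of 50.1 and 58.5 at 0 h and 96.8 and 96.7 at 2 h. MED24 at the overlapping chr10:77198618-77200315 was at 43.3 and 12.2 at 0 h and 98.0 and 99.0 at 2 h, while its neighbour chr10:77196609-77198529 was at 79.9 and 82.9 at 0 h and 76.4 and 76.8 at 2 h. The part of this stretch farther from the gene thus ranked higher at 2 h for MED24, and the nearer part did not. MED24 at chr10:77195353-77196521 was among its library's weakest regions at 0 h, at percentiles 5.72 and 3.90, and stood at 56.9 and 66.0 at 2 h. The gained region chr10:77206393-77207184, 39.9 kb upstream of Col18a1, was at MED1 percentiles of 94.0 and 94.3 at 2 h with fold enrichments of 15.8 and 14.2. MED24 there was at 96.1 and 95.2, and no 0 h library of either protein called it.

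The Col18a1 promoter at the outer start of the gene ranked lower. RefSeq also places an inner start, and its window, chr10:77113656-77113955, overlapped no region of either protein. The MED1 region beside the outer start was called at 0 h in clone b, at percentile 24.4, and at 2 h in both clones, at 34.3 and 22.4. For MED24 it was called at 37.8 and 25.1 at 0 h and in clone a, at 4.05, at 2 h. A retained MED1 region just inside the gene, chr10:77164210-77165059, was at 53.6 and 60.9 at 0 h and lower at 2 h, at 1.46 and 51.1. The retained chr10:77130484-77130913 was at 6.89 and 11.1 at 0 h and 0.685 and 15.9 at 2 h, so the clones were split. Inside the gene span MED1 was called at 6 and 4 regions at 0 h and at 9 and 9 at 2 h, and MED24 at 6 and 7 and then at 12 and 13.

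**Figure D3:**
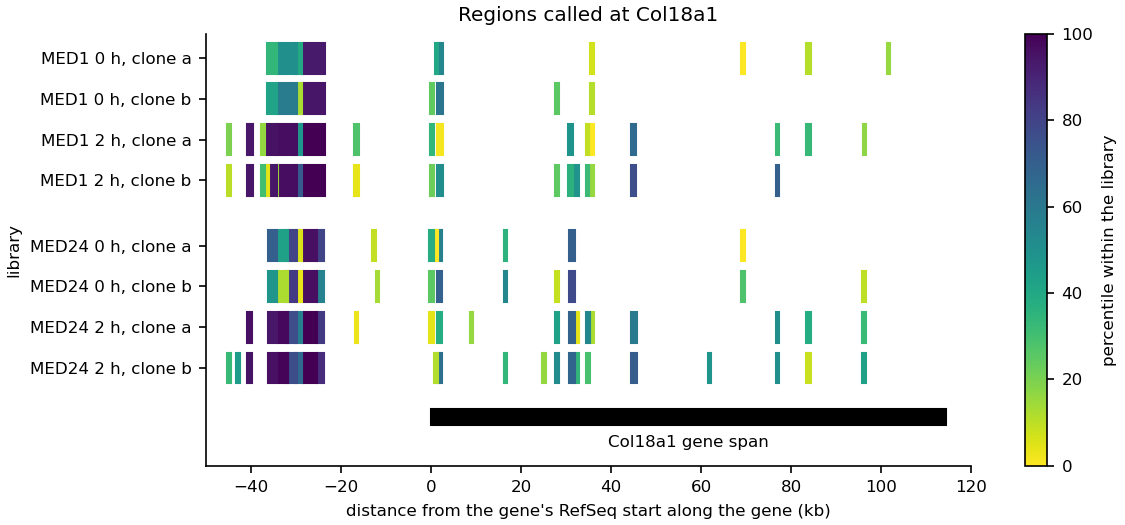
Regions called at Col18a1 in the 8 libraries (rows), by distance in kb from the gene's RefSeq start, negative upstream, with the gene span in black. Colour is the percentile of the region within its library; the block 24 to 36 kb upstream is present in all rows and mostly darker at 2 h, except for a MED24 region about 31.0 kb upstream, and the band 40 kb upstream appears in the 2 h rows.

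Among the fibrillar genes, 11 in all, MED1 had 26 regions with 7 gained and 1 lost, and MED24 had 32 with 3 gained and 4 lost. Of all MED1 regions 17.6% were gained and 6.90% lost, and of all MED24 regions 16.0% and 8.83%. Col5a1 encodes a chain of collagen V, which sets the diameter of collagen I fibrils. Its promoter region was called in every library: MED1 was at percentiles 54.8 and 34.8 at 0 h and 83.1 and 80.7 at 2 h, with fold enrichments of 5.58 and 4.50 at 0 h and 11.8 and 10.8 at 2 h. MED24 there was at 62.2 and 52.1 at 0 h and 91.4 and 92.3 at 2 h, so both proteins ranked higher at 2 h in both clones. A region 51.5 kb upstream, chr2:27834440-27834893, was called for MED1 at 2 h alone, at 89.8 and 83.6, and for MED24 at 85.8 and 83.4.

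Col5a2, which encodes the partner chain of Col5a1, lost a region outside its span: chr1:45594313-45594784, 91.0 kb away, was called for MED1 at percentiles 39.9 and 45.7 at 0 h and in neither 2 h library. MED24 at the same place was at 69.1 and 67.3 at 0 h and was not called at 2 h. This region lies just inside the limit of 100 kb, and the nearest one outside it, at Col8a1, was 103 kb away and called in 1 library. Col5a2 also lost MED24 at chr1:45407702-45408004 inside its span, where the 0 h percentiles were 50.4 and 62.2, and gained MED1 at chr1:45495068-45495360, at 61.1 and 48.6. Its retained MED24 region, chr1:45575180-45575576, was at 39.6 and 74.2 at 0 h and 36.4 and 30.1 at 2 h.

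Col5a3 had an intragenic MED1 region, chr9:20812791-20813328, at percentiles 0.631 and 21.3 at 0 h and 65.5 and 62.5 at 2 h, with fold enrichments of 2.88 and 3.96 and then 7.57 and 7.38. Col11a1, whose product takes part in starting fibrils in cartilage, had a gained MED1 promoter at the low percentiles of 17.2 and 16.8. MED24 at that promoter was already called at 0 h in clone b (13.4) and was at 44.5 and 38.6 at 2 h. In contrast, chr3:113958368-113958766, 71.7 kb upstream of Col11a1, was lost for MED24 from percentiles of 76.6 and 82.3.

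Col1a1 and Col1a2 encode the chains of collagen I, the main fibre of bone and skin. The Col1a2 promoter was gained for MED24 at percentiles of 25.5 and 27.1 and was not called for MED1. Downstream of Col1a2, 8.92 kb from its end, chr6:4550463-4550945 was retained for MED1 at percentiles of 62.2 and 69.4 at 0 h and 36.7 and 1.65 at 2 h. The fold enrichment there was 4.65 and 7.0 at 0 h and 4.69 and 2.65 at 2 h, so it was lower in clone b alone. MED24 went the other way at this gene's retained region, with percentiles higher at 2 h by 24.8 and 15.2. Col2a1 of cartilage and Col3a1 of vessels and skin had no gained or lost region, and both MED24 regions of Col3a1 were retained.

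Col7a1 encodes the anchoring fibrils that hold skin to its basement membrane, and none of its regions was called in any 0 h library. Its promoter was called for MED1 at percentiles of 71.3 and 91.1 at 2 h, with fold enrichments of 6.55 and 15.5, and for MED24 at 76.4 and 83.6. A second gained region, chr9:108982444-108982864 near the end of the span, stood at 45.6 and 66.1 for MED1 and at 28.0 and 45.4 for MED24. The next gene to the promoter region, Uqcrc1, was 2.90 kb away.

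Collagen VI chains form beaded filaments around cells. Of the 6 genes, Col6a5 had 9 regions of each protein, called for MED1 at 3 and 2 regions at 0 h and 6 and 6 at 2 h, and for MED24 at 3 and 3 and then 5 and 7. The 4 gained regions of each protein lay inside the gene at the same 4 places. The strongest for MED1, chr9:105923559-105924335, was at 87.2 and 87.0 with fold enrichments of 13.4 and 13.2, and MED24 there was at 82.7 and 88.9. MED24 was highest at chr9:105887382-105887876, at 88.8 and 91.5, where MED1 was at 80.8 and 69.6. A region 9.11 kb upstream of Col6a5, chr9:105971575-105971934, was lost for both proteins, from 3.76 and 52.0 for MED1 and from 35.6 and 14.7 for MED24. In Col6a3, the intragenic chr1:90834757-90835319 was gained for MED1 at 93.2 and 95.1, with fold enrichments of 17.6 and 19.6, and for MED24 at 86.8 and 87.4.

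The FACIT counts stand beside 17.6% of all MED1 and 16.0% of all MED24 regions gained, and 6.90% and 8.83% lost. The 9 FACIT genes had 15 MED1 regions with 1 gained and none lost, and 20 MED24 regions with 2 gained and 1 lost. The gained MED1 region, chr1:24491654-24492175 inside Col19a1, was at 84.3 and 89.6 with fold enrichments of 8.73 and 10.4, and MED24 there was gained at 86.9 and 91.4. Elsewhere in Col19a1, MED24 at chr1:24326644-24327209 was retained, at 67.6 and 70.2 at 0 h and 30.2 and 58.8 at 2 h. Col14a1, whose product associates with collagen fibrils, had a retained MED1 region 18.8 kb from its span (chr15:55288218-55288811) at 27.5 and 34.8 at 0 h and 73.8 and 82.6 at 2 h. A retained region 2.75 kb downstream of Col16a1, chr4:130102027-130102724, was at 94.9 and 98.4 at 0 h and 79.1 and 80.7 at 2 h for MED1, and its next gene, Pef1, was 4.83 kb away.

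Col13a1, a transmembrane collagen of neuromuscular junctions, had both gains and losses. Its MED1 regions were called 9 and 11 times at 0 h and 8 and 11 times at 2 h, which overlap, and its MED24 regions 9 and 7 times and then 6 and 8 times. A region 54.1 kb upstream, chr10:62033317-62033891, was gained for MED1 at 90.8 and 95.4, with fold enrichments of 11.6 and 20.1. At the other end of the gene, chr10:61831025-61832137 was lost for MED1 from 67.6 and 47.3 and for MED24 from 73.0 and 77.9. A weaker region inside the gene, chr10:61936537-61936826, was lost for MED1 from 7.35 and 8.58. The intragenic chr10:61928700-61929959 was retained for MED1 at 88.4 and 89.2 at 0 h and at 61.1 and 48.6 at 2 h, and MED24 there was at 96.8 and 93.6 and then at 79.7 and 80.3. The promoter was gained for MED24 at 21.6 and 58.4, while MED1 was called there in the 0 h library of clone b alone, at 13.5.

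The promoter of Col23a1, another transmembrane collagen, was retained by both proteins, whose ranks went opposite ways. MED1 was at 28.5 and 54.1 at 0 h and 6.06 and 11.4 at 2 h, while MED24 was at 21.2 and 41.1 at 0 h and 43.2 and 57.4 at 2 h. The MED1 fold enrichment in clone a was 3.80 at both times, and in clone b it was 6.37 at 0 h and 3.40 at 2 h. At the Col25a1 promoter MED24 was gained at the low percentiles of 28.0 and 0.662, and MED1 was called in 3 libraries. The Col27a1 promoter (Col27a1 is fibrillar) was called in 2 MED1 libraries and 1 MED24 library, and those of Col16a1 for MED1 and of Col8a1 and Col4a5 for MED24 were called in the 2 h library of clone b alone.

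Col26a1 and Col28a1, which belong to none of these families, differed from each other. MED1 was called at 1 and 0 Col26a1 regions at 0 h and at 7 and 8 at 2 h, and MED24 at 0 and 0 and then at 5 and 8. Gained MED1 regions there had percentiles between 25.2 and 66.4, so they were of middle and low rank. One of them, chr5:136850077-136850716, was at 66.4 and 59.9 for MED1 and at 32.4 and 19.0 for MED24. Col28a1 encodes a collagen with von Willebrand factor A domains. MED24 was called at 8 and 8 of its regions at 0 h and at 3 and 4 at 2 h, and MED1 at 5 and 4 and then at 2 and 3. The lost MED24 region with the highest mean percentile over both clones, at 88.8 and 77.2, was chr6:8008937-8009431 inside Col28a1. A second one inside the gene, chr6:8119103-8119614, was lost from 55.5 and 47.1. Downstream of Col28a1, chr6:7970908-7971842 was retained for MED24 at 89.4 and 90.0 at 0 h and 72.2 and 74.9 at 2 h. Farther out, chr6:7951067-7951319 was retained for MED24 at 70.4 and 67.7 at 0 h and 24.98 and 46.4 at 2 h, and no MED1 region overlapped it.

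Among the hexagonal network genes, Col8a2 lost a MED1 region inside its span (chr4:126296790-126297147) from 30.1 and 19.1, and Col8a1 had 1 gained region of each protein. These chains are known from the membrane under the corneal endothelium.

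**Figure D4:**
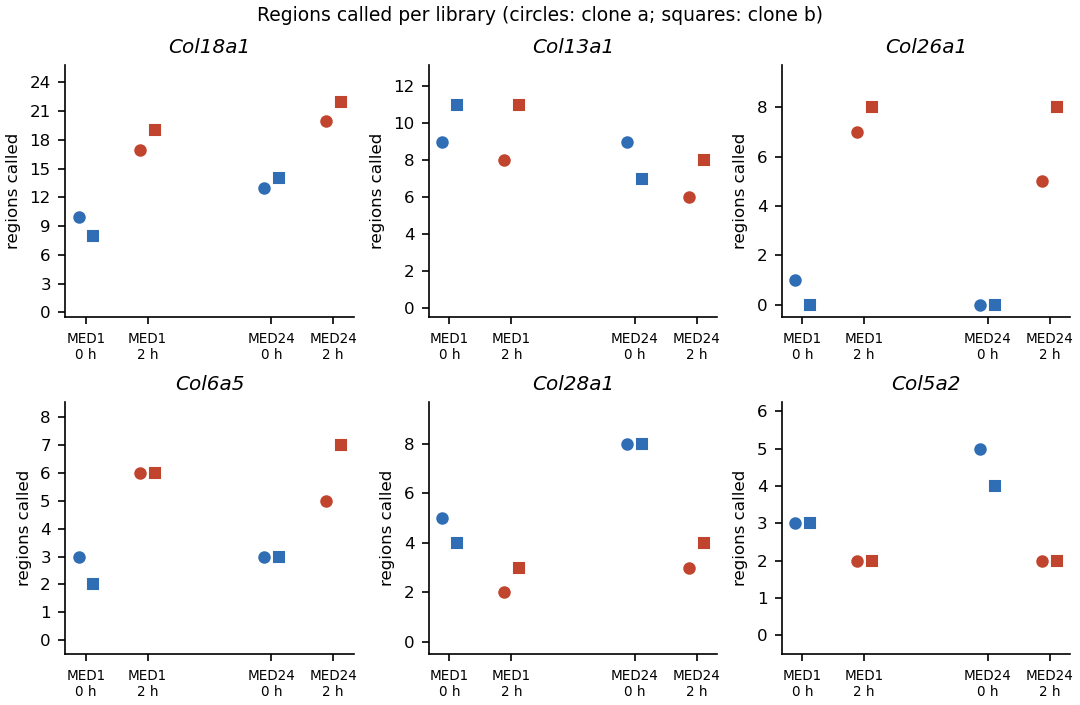
Regions called per library at Col18a1, Col13a1, Col26a1, Col6a5, Col28a1 and Col5a2, with circles for clone a, squares for clone b, blue for 0 h and red for 2 h. The vertical axis counts called regions; the 2 h libraries lie above the 0 h libraries at Col18a1, Col26a1 and Col6a5, below them at Col28a1 and Col5a2, and overlap them at Col13a1.

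The mean rank of the retained regions was taken with and without Col18a1. The mean percentile of the 22 retained MED1 regions was 59.9 and 61.5 at 0 h and 63.6 and 64.8 at 2 h, a difference of 3.52, while all 20152 retained MED1 regions differed by -2.84. For MED24, the 28 retained regions averaged 63.2 and 64.7 at 0 h and 67.9 and 71.6 at 2 h, a difference of 5.79, against -0.112 over all 21529. Without Col18a1, an alternative chosen after seeing the data, the difference was -1.81 for MED1 and 0.0111 for MED24. The MED1 value was still above the -2.84 of all retained regions, and no other gene was left out for comparison. The rank difference also varied when 1 library was left out. More regions then count as retained, so this does not show dependence on 1 library. For MED1 the rank difference was 0.163 or 0.926 when clone a or b at 2 h was left out, and 2.05 or 6.70 when clone a or b at 0 h was. That of MED24 was 1.93 when clone b at 2 h was left out and 9.74 when clone b at 0 h was. With the replicate block the MED1 difference was 0.439. The MED1 difference also turned negative with the 20000 highest ranked peaks per library (-2.86) and within 20 kb of the genes (-2.46). Higher in both clones were 7 of 22 MED1 regions (31.8%, all retained regions 24.7%) and lower in both were 8 (36.4%, all 43.8%). For MED24, 14 of 28 were higher in both clones (50%, all 34.5%) and 10 lower (35.7%, all 36.4%). Across the 6 retained Col18a1 regions of MED1 the mean difference was 10.6 in clone a and 24.9 in clone b, and across its 8 of MED24 it was 14.2 and 26.3.

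**Figure D5:**
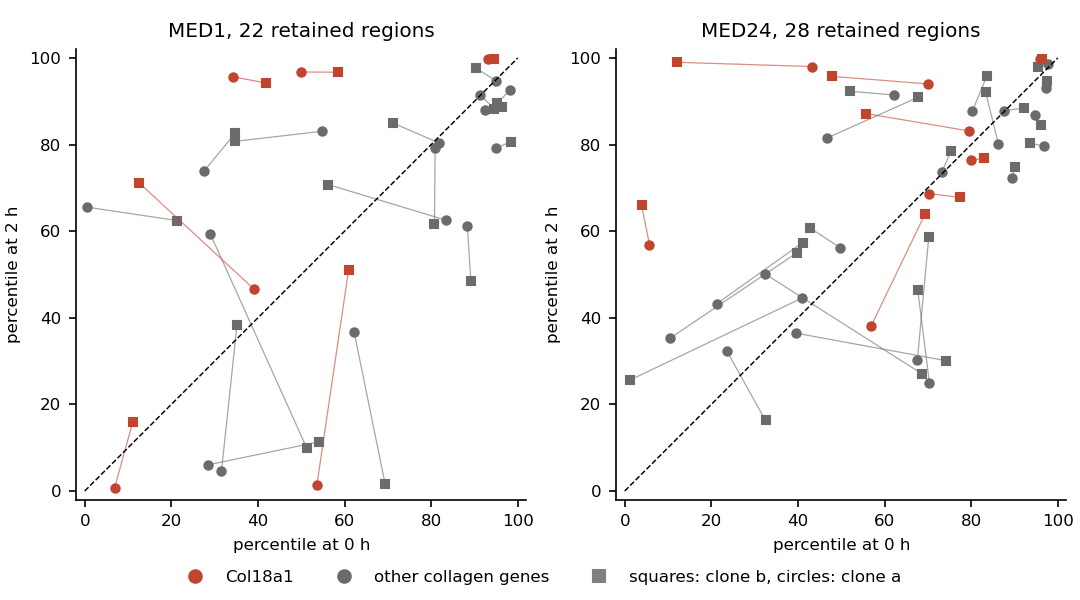
Percentile of each retained collagen region at 0 h (horizontal) and 2 h (vertical), for MED1 (left, 22 regions) and MED24 (right, 28 regions). Circles are clone a and squares clone b, joined for each region, with Col18a1 in red; several Col18a1 regions lie far above the dashed line of equal rank, and the other genes lie on both sides.

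The proteins could be compared region by region, in separate libraries of the same 2 clones. Of 31 gained MED1 regions, 29 overlapped a MED24 region (93.5%, against 88.5% over all gained MED1 regions). A gained MED24 region was overlapped by 17, which is 54.8% of the MED1 list (62.0% over all). Of 27 gained MED24 regions, 24 overlapped a MED1 region (88.9%, against 93.5% over all gained MED24 regions). A gained MED1 region was overlapped by 17, 63.0% (67.6% over all). Lost regions matched in 3 places, 60% of the 5 MED1 losses and 23.1% of the 13 MED24 losses, beside 44.5% and 34.3% over all regions. No collagen region was gained for one protein and lost for the other, and how often this occurred over all regions was not computed. Of the retained regions, 86.4% of those of MED1 and 75% of those of MED24 overlapped a retained region of the other protein, beside 84.7% and 80.4% over all retained regions.

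Collagen regions overlapped their gene's span in 63.2% of MED1 and 63.6% of MED24 cases, close to the 62.0% and 61.9% of all assigned regions. Gained regions lay in the span in 22 of 31 cases for MED1 (71.0%) and 23 of 27 for MED24 (85.2%), and retained ones in 9 of 22 (40.9%) and 12 of 28 (42.9%). Lost ones did so in 2 of 5 and 7 of 13 cases. Of the retained regions outside a span, 4 of MED1 and 6 of MED24 lay upstream of Col18a1. The same shares over all gained, lost or retained regions were not computed, so these values do not show a trait of collagen genes. Gained regions had a median width of 454 bp for MED1 and 498 bp for MED24 (427 and 423 bp over all gained regions), and retained ones of 826.5 and 863.5 bp (956 and 835 bp over all). At 2 h the gained MED1 regions spanned percentiles from 4.18 to 94.0 in clone a, with a median of 48.2, and from 3.66 to 95.4 in clone b, with a median of 59.9. The 5 lost MED1 regions had medians of 30.1 and 45.7 at 0 h.

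The genes that make, assemble, bind and break down collagen were listed alongside, 47 in all. Their MED1 regions were gained in 29 of 145 cases (20%) and lost in 5 (3.45%), and their MED24 regions in 21 (15.1%) and 9 (6.47%) of 139, beside 17.6% and 6.90% of all MED1 regions and 16.0% and 8.83% of all MED24 regions. The 19 genes of chain modification and folding, such as the prolyl and lysyl hydroxylases, had 3 gained and 1 lost MED1 regions of 49, and 5 gained and 3 lost MED24 regions of 52. The 13 genes of maturation, the propeptide proteinases and lysyl oxidases, had 16 gained and none lost of 47 for MED1 and 11 gained and none lost of 41 for MED24. Among these, Pcolce2, an enhancer of procollagen C-proteinase, had 5 and 4 gained regions, and Bmp1, that proteinase, 2 and 3. The 9 receptor genes had 6 gained and 4 lost of 33 MED1 regions and 3 gained and 6 lost of 31 MED24 regions, with 2 lost regions of each protein at Ddr2, a receptor tyrosine kinase for fibrillar collagen. The 6 genes of breakdown had 4 gained of 16 and 2 gained of 15, none lost. The pair left out, Col4a1 and Col4a2, had 7 gained and 3 lost of 16 MED1 regions and 7 gained and 2 lost of 19 MED24 regions.

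The labelled cell type was checked against marker genes by occupancy alone. Each of 9 embryonic stem cell genes had regions of both proteins, Sox2 22 of MED1 and Nanog 16. MED1 regions also lay at 8 of 10 fibroblast and 7 of 8 primitive endoderm genes, and MED24 regions at 6 and 7. Over all genes, 24.1% had no MED1 region and 23.3% no MED24 region, so a region alone does not tell a cell type. MED1 was called at 89 and 92 regions of the embryonic stem cell list at 0 h and at 69 and 71 at 2 h. For MED24 the numbers were 86 and 86 and then 75 and 85. Regions at 10 fibroblast genes were called 6 and 7 times for MED1 at 0 h and 10 and 14 times at 2 h, and for MED24 6 and 9 times and then 9 and 15 times. At 8 primitive endoderm genes MED1 was called 12 and 14 times at 0 h and 13 and 15 times at 2 h, and MED24 17 and 19 times and then 11 and 16 times. In all, the MED1 libraries called 36161 and 34995 regions at 0 h and 41291 and 44811 at 2 h. The MED24 libraries called 39864 and 36479 and then 40452 and 47259, and the marker counts are not corrected for this. Whether cells of another type had a part in the collagen values was not tested.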

How the data were processed

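Peaks of MED1 and MED24 were listed per library. Bowtie2, MACS2, bedtools and the mm10 build are named in the submitters' processing notes. Their versions and settings, and how inputs were used, are not given there. The MED1 lists hold the score, the fold enrichment (a ratio), the −log10 p-value and the −log10 q-value that the authors deposited for every peak, with the score at 10 times −log10 q. The MED24 lists hold a score deposited by the authors, read the same way although those lists do not say so, and their peak names carry EP300 beside FLAG, whereas the titles, which were followed here, name MED24. The lowest score was 20. No read counts were given, so depth is unknown, and the number of clones limits precision.

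With Python 3.11.15 (numpy 2.4.6, scipy 1.17.1), the 4 lists of each protein were merged where peaks overlapped by at least 1 bp, and regions were assigned to the nearest RefSeq protein-coding gene span within 100 kb. Ranks within a library used the −log10 p of MED1 peaks and the score of MED24 peaks. Libraries with the same clone letter come from the same clone, per the titles, and so are paired, while the values reported pool the clones. Values are given for the 6 gained and 6 lost regions per protein with the best mean percentile, the 4 retained ones each way whose smaller shift of the 2 clones was largest, promoter regions and regions beside them. Regions of Col18a1, Col5a2, Col7a1, Col26a1 and Col6a5 beyond that rule were chosen after their values were seen. The members and gene lists were chosen with earlier results of these data known. Alternatives were another threshold, list length, overlap, distance and treatment of ties, the replicate block, and leaving out each library or Col18a1. The merging and counting were tested on simulated data. Sequences are RefSeq's (GRCm38).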

Additional observations from a re-analysis of the deposited data

How the results depend on the processing

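Over the 12 results and 12 other settings, 110 values kept their sign or, for counts, stayed within 1.5 times, 28 counts moved by more, and 6 rank shifts changed sign. With a score of at least 100 there were 19 gained and 11 retained MED1 regions and 18 retained MED24 regions. With 20000 peaks per library, 15 MED1 regions were gained and 10 retained, and 16 MED24 regions were gained, 8 lost and 15 retained. With 10000 peaks, 9 MED1 regions were gained, 1 lost and 6 retained, and 11 MED24 regions were gained, 3 lost and 8 retained. Shorter lists hold fewer peaks, so these counts are smaller by construction. Within 20 kb, 14 MED1 and 18 MED24 regions were retained. The mean rank shift of retained MED1 regions was -0.931 with a score of at least 100, -2.86 with 20000 peaks, -20.3 with 10000 peaks, -2.46 within 20 kb and -1.81 without Col18a1, and that of MED24 was -11.8 with 10000 peaks, and the cause was not tested. With the replicate block, which counts within each clone and averages, 22 MED1 and 27 MED24 regions were lost and 50.5 MED24 regions gained, since a call in 1 clone then suffices. It moved no other count by over 1.5 times, and put the mean rank shift of retained MED1 regions at 0.439. Leaving out 1 library gave 34 to 49 gained and 9 to 19 lost MED1 regions, and 30 to 51 gained and 15 to 25 lost MED24 regions. Fewer libraries must agree in that case too, so these counts are larger mostly by construction. Differences in called regions and in their share kept their sign under all settings run.

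The 2 clones per group, the absence of read counts and the nearest-gene rule limit these values. A region not called in a library was not shown to be unbound there.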
